A study of Homo sapiens with 6 samples.

Results

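Zinc finger genes numbered ZNF600 to ZNF899 were examined in EJ cells, a human bladder cancer line, after stable knockdown of STIL, a gene needed for centriole duplication. The members were the rows of the 6 expression tables whose symbol is ZNF followed by a number in that range, with a trailing letter allowed, and 157 of the 15953 measured genes met this rule, which uses names only. EJ cells carried either a lentiviral negative-control hairpin (shNC, 3 libraries) or a lentiviral hairpin against STIL (shSTIL, 3 libraries), with no other treatment, and the column headers call the same groups siNC and siSTIL. Each arm was a stable cell line, the sequence of the hairpin is not given in the sources used here, and it is not stated whether the 3 libraries of an arm came from separate cultures, so the p-values measure the spread between these libraries, which may be technical.

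Most proteins of this numbering series carry runs of C2H2 zinc fingers, small zinc-binding folds that read DNA sequence. Many also carry a KRAB box, a short motif that recruits the scaffold protein TRIM28, which in turn brings the histone methyltransferase SETDB1, HP1 proteins (CBX1, CBX3, CBX5) and the NuRD deacetylase complex to the bound site. KRAB zinc finger genes lie in clusters of related copies, most of them on chromosome 19, and are best known for silencing transposable elements. A KRAB A box pattern was found in the coding sequences of 102 members and was not found in 53, and 2 members (ZNF788P and ZNF806) had no coding sequence. C2H2 finger matches ran from 0 to 29 per protein. Members lay on 16 chromosomes, 70 of them on chromosome 19.

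STIL itself read 5.98, 6.10 and 6.01 log2 CPM in the shNC libraries and 4.05, 4.06 and 4.01 in the shSTIL libraries, where CPM scales reads to an equal library total and each step of 1 is a doubling. The knockdown libraries retained 25.2% of the control level on this scale (log2 fold change -1.99, SE 0.05, limma adjusted p = 6.1e-12), and the groups did not overlap. Library totals were 16214770 to 16431239 reads in shNC and 16734466 to 16901630 in shSTIL. Of 19 bladder urothelium and carcinoma markers 15 were measured, and KRT7, KRT8 and KRT18 lay above 5 log2 CPM while KRT5, KRT17, KRT20 and CDH1 lay below -2, close to the -3.05 that a gene without reads takes. The summed level of these 15 genes was 10.1 to 10.2 in shNC and 9.97 to 10.01 in shSTIL. The mesenchymal genes VIM, CDH2, FN1 and ZEB1 summed to 10.6 to 10.7 in shNC and 9.92 to 9.95 in shSTIL. The 3 endothelial markers summed to between -0.08 and 0.43 over all 6 libraries. The 2 measured immune markers, CD68 and LYZ, summed to 3.54 to 3.63 in shNC and 3.74 to 3.91 in shSTIL, and the 2 measured fibroblast markers to 1.53 to 2.12 and 1.13 to 1.30. The part of these shifts in the results was not tested.

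ZNF862, which encodes a little-characterised protein, had the largest change of the 157 members. Its gene lies on the plus strand of chromosome 7 from 149838375 to 149867479 (GRCh38). The KRAB A box pattern was found among its coding sequences, and the longest of them, with 1169 residues, held no C2H2 finger match. The bases before its start are shown because 4 CCAAT letters, the core of the CCAAT box that is bound by the factor NF-Y, and 1 run of ACTACA, any base and TTCCC, letters that also occur before other genes of this family, stand there. The 250 bases upstream of the RefSeq start at chr7:149838125-149838374 (GRCh38.p14, plus strand) read, with those letters on either strand in capitals:

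ZNF862: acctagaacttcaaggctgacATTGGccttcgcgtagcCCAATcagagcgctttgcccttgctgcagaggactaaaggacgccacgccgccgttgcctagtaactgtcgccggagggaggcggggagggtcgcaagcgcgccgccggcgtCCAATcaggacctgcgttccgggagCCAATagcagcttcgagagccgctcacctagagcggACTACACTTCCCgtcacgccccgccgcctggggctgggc

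The CCAAT letters began 212, 100 and 75 bases before the start on the gene's strand, and a reverse copy (ATTGG) lay 229 bases before it. The ACTACA run began 39 bases before the start. The 4 other members that were DEGs (differentially expressed genes, adjusted p under 0.01) and held the longer run in their upstream bases are set beside it, each as 40 bases on the strand that carries ACTACA, with the run in capitals. They are ZNF605 and ZNF717, which rose, and ZNF658 and ZNF850, which fell, at chr12:132956320-132956359 (plus strand), chr3:75785652-75785691 (plus), chr9:66900632-66900671 (minus) and chr19:36772869-36772908 (minus).

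ZNF605: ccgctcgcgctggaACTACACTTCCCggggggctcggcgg
ZNF717: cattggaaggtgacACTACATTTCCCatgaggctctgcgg
ZNF658: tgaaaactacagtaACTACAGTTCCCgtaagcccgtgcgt
ZNF850: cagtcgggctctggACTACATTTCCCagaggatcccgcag

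The letters stood before genes that rose and before genes that fell. RefSeq promoter windows, 250 bases before to 50 after a start, were matched by symbol for 125 of the 157 members, and both strands were searched. The longer run was in 9 of the 125 members (7.20%) and in 35 of 278 other ZNF genes (12.6%). It was in 262 of all 27305 symbols (0.96%) and in 213 of the 12621 measured genes with a window (1.69%). ACTACA alone, which the longer run contains, was in 22 members (17.6%) and in 25.5% of other ZNF genes. It was in 10.3% of all symbols and 10.8% of measured genes. Of these 22 members 9 were higher (40.9%) and 3 lower (13.6%) in shSTIL at an adjusted p under 0.01. Of the 103 without the letters 21 were higher and 22 lower. Beside these stand 23.5% higher and 23.6% lower over all 15953 genes. CCAAT was in 71 members (56.8%), in 51.8% of other ZNF genes, in 39.7% of all symbols and in 42.7% of measured genes. Of these 71 members 12 were higher (16.9%) and 15 lower (21.1%), while the 54 members without it had 18 higher and 10 lower. Without 1 library, 6 to 9 members with CCAAT were higher and 4 to 8 lower, and 6 to 7 with ACTACA were higher and 0 to 2 lower. The letters were picked after the sequences and the values had been seen, and a match is no evidence of binding.

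ZNF862 read 2.16, 2.28 and 2.03 log2 CPM in the 3 shNC libraries and 4.34, 4.38 and 4.24 in the 3 shSTIL libraries. Every shSTIL library lay far above every shNC library, and the spread within a group was small beside the gap (SD 0.12 and 0.07, n = 3 each). In reads, the control libraries held 63 to 77 and the knockdown libraries 319 to 355. The log2 fold change was 2.16 (SE 0.10, limma adjusted p = 1.1e-09), a 4.47-fold higher level on a scale that understates changes of genes with few reads. In bulk RNA a change per cell cannot be told apart from a change in the number of cells of a type. An exact permutation test (two-sided, 20 possible labellings) gave p = 0.1, the smallest value that 3 libraries against 3 can give. Only 35 of the 15953 genes had a log2 fold change as high, ZNF862 included. It stayed between 2.10 and 2.22 when each library was left out in turn.

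The genes around ZNF862 did not rise with it, apart from a pair of KRAB members on one side. Within 500 kb, 9 genes were measured. ZNF777, which ends 377.3 kb before ZNF862, rose by 0.87 on the log2 scale (SE 0.05, limma adjusted p = 1.6e-08), and ZNF746, which encodes the Parkin substrate PARIS and ends 340.6 kb before it, rose by 0.24 (SE 0.05, limma adjusted p = 0.00049). The called genes nearer to it were lower. ZNF467, which ends 61.8 kb before ZNF862, read a mean of 2.95 log2 CPM in shNC and 2.06 in shSTIL and was lower by a log2 fold change of -0.89 (SE 0.15, limma adjusted p = 0.00024). ATP6V0E2, which encodes a subunit of the vacuolar proton pump and begins 5.5 kb after ZNF862, went from 7.02 to 6.74 (log2 fold change -0.29, SE 0.04, limma adjusted p = 3.7e-05). KRBA1 (-0.15), ACTR3C (-0.08), LRRC61 (0.17), ZBED6CL (-0.15) and RARRES2 (0.19) were not DEGs, and RARRES2 lay at the level of no reads. The call of ZNF467 was lost in 5 of the 6 fits that left out a library, with log2 fold changes from -1.03 to -0.79, and that of ATP6V0E2 and ZNF746 in 1 each.

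**Figure D1:**
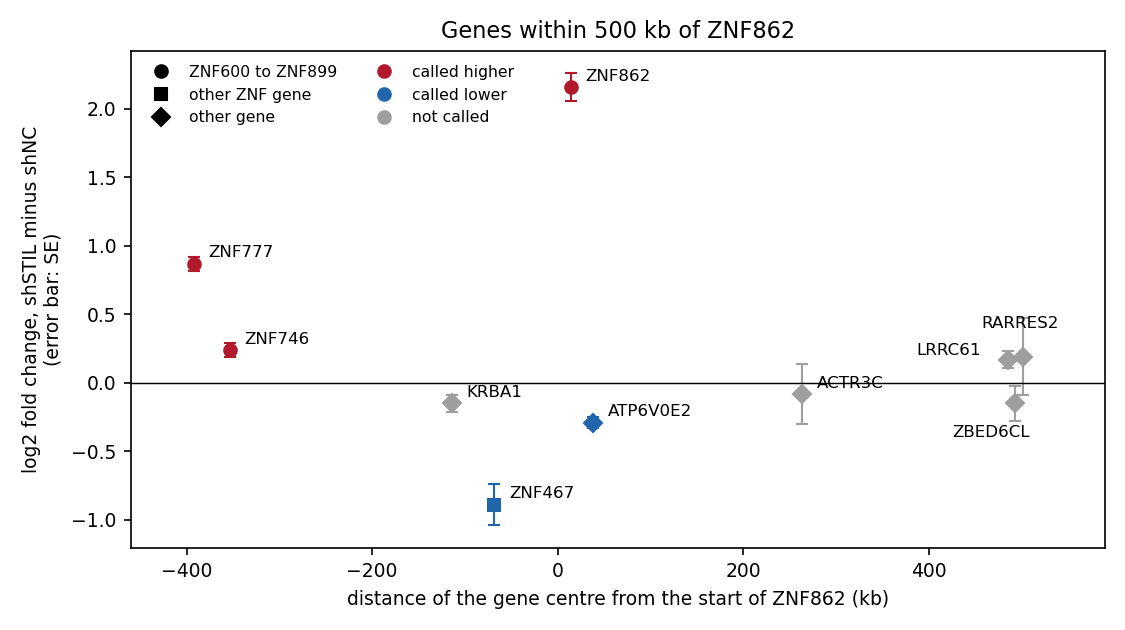
Log2 fold change (shSTIL minus shNC, error bar SE) of ZNF862 and the 9 measured genes within 500 kb, against the distance of the gene's centre from the start of ZNF862 in kb, with 3 libraries in each group. Shape marks the kind of gene and colour the call at adjusted p under 0.01. ZNF862 stands at 2.16, ATP6V0E2 beside it at -0.29 and ZNF467 on its other side at -0.89.

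Over the whole set the knockdown moved members both ways and did not move the middle of the distribution. Of the 157 members 37 were higher and 30 lower in shSTIL at a limma adjusted p under 0.01, and 90 were not called. Over all 15953 genes 23.5% were called higher and 23.6% lower, so the 23.6% of members that were higher equals the background and the 19.1% that were lower is below it. The shNC and shSTIL values did not overlap in 93 members (59.2%), beside 60.3% of all genes, and all 67 called members were among them. The median log2 fold change was -0.01 over the members and 0.01 over all genes. Changes were mostly small. The median size of a called change was 0.48 on the log2 scale in members and 0.46 in all genes, and 2 of the 67 called members (2.99%), ZNF862 and ZNF705E, passed 1 in size against 12.7% of called genes. Each fit without 1 of the 6 libraries called 25 to 31 members higher and 9 to 13 lower, with 9 when shSTIL replicate 3 was left out, while the lower calls over all genes went from 3759 to between 2500 and 2837.

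**Figure D2:**
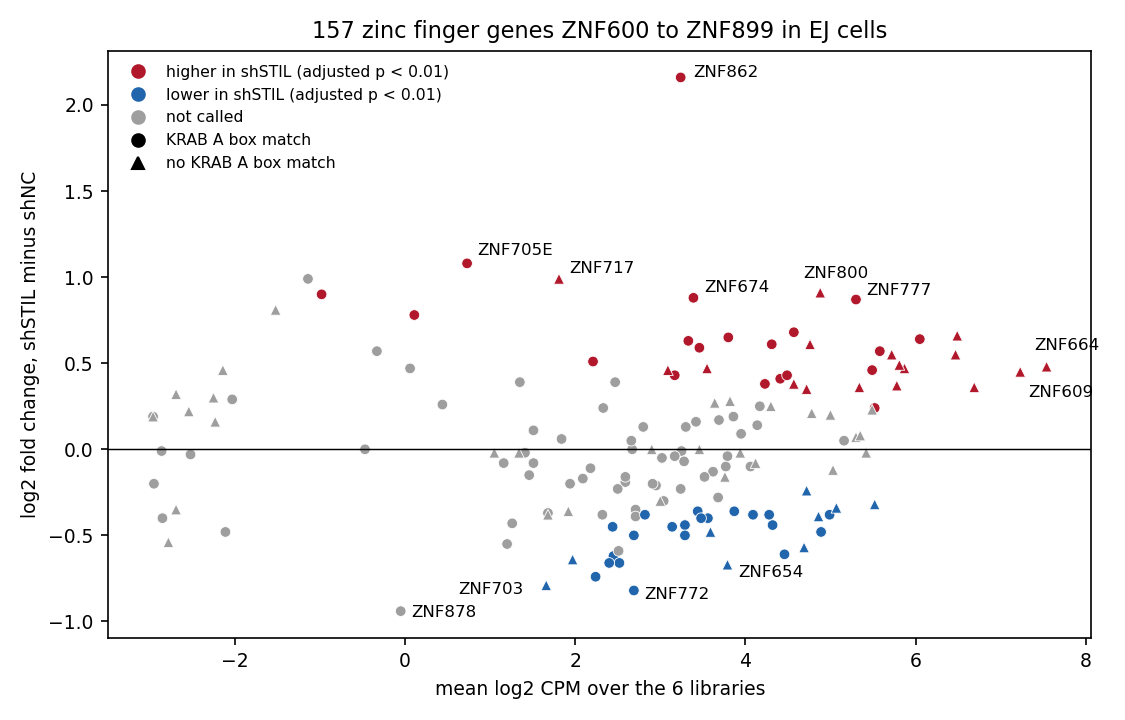
Log2 fold change (shSTIL minus shNC) of the 157 members against their mean log2 CPM over the 6 libraries, with 1 point per gene. Colour marks the call and shape the KRAB A box match (members without a coding sequence are drawn as no match). ZNF862 stands alone at 2.16, and most points at the right edge are higher in shSTIL.

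Other members rose by less than ZNF862. ZNF800, a repressor known from enteroendocrine development, read 4.41, 4.44 and 4.40 log2 CPM in shNC and 5.43, 5.28 and 5.29 in shSTIL. All shSTIL libraries were higher, by a log2 fold change of 0.91 (SE 0.06, limma adjusted p = 1.9e-08). ZNF777, a KRAB member, read 4.79, 4.91 and 4.89 against 5.67, 5.81 and 5.71. ZNF674, a KRAB member on the X chromosome, read 2.97, 3.01 and 2.84 against 3.91, 3.80 and 3.77, a log2 fold change of 0.88 (SE 0.09, limma adjusted p = 2.6e-06). Again no shSTIL library fell among the controls. ZNF717 read 1.45, 1.40 and 1.09 in shNC and 2.30, 2.27 and 2.36 in shSTIL (log2 fold change 0.99, SE 0.16, limma adjusted p = 0.00011) with 32 to 85 reads per library. The other named rises were ZNF605 (0.68), ZNF655 (0.66), ZNF814 (0.65), ZNF621 (0.64) and ZNF783 (0.63), with limma adjusted p values no higher than 6.1e-05. ZNF655 encodes VIK, a partner of the signalling protein VAV1. The 10 largest rises stayed called in each fit without 1 library.

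The 10 largest falls ran from -0.82 to -0.57 on the log2 scale. ZNF772, a KRAB member on chromosome 19, read 3.01, 3.30 and 2.99 log2 CPM in shNC and 2.48, 2.06 and 2.29 in shSTIL (log2 fold change -0.82, SE 0.14, limma adjusted p = 0.00022). All shSTIL libraries lay below the controls, with 70 to 159 reads per library. ZNF703, a cofactor without a classical finger array that is amplified in luminal breast cancer, read 2.39, 1.85 and 1.94 against 1.33, 0.94 and 1.53 (log2 fold change -0.79, SE 0.20, limma adjusted p = 0.0042). ZNF654 read 4.02, 4.24 and 4.09 against 3.39, 3.55 and 3.42 (log2 fold change -0.67, SE 0.09, limma adjusted p = 1.8e-05). In both genes the groups were apart, but those of ZNF703 were spread more widely. ZNF700, a KRAB member, went from 4.68, 4.76 and 4.85 to 4.07, 4.21 and 4.17. ZNF618 went from 4.99, 5.03 and 4.91 to 4.42, 4.37 and 4.43. The log2 fold changes of ZNF700 and ZNF618 were -0.61 (SE 0.07, limma adjusted p = 4.4e-06) and -0.57 (SE 0.06, limma adjusted p = 1.8e-06). The others were ZNF724 (-0.74), ZNF792 (-0.66), ZNF850 (-0.66), ZNF784 (-0.64) and ZNF620 (-0.62), with limma adjusted p values from 0.0012 to 0.0025. ZNF654, ZNF700 and ZNF618 kept their calls in each fit without 1 library, while ZNF703 and ZNF620 lost theirs in 6 of 6, ZNF724, ZNF772, ZNF792 and ZNF850 in 5 and ZNF784 in 4, whichever arm the library came from, with every log2 fold change still negative.

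**Figure D3:**
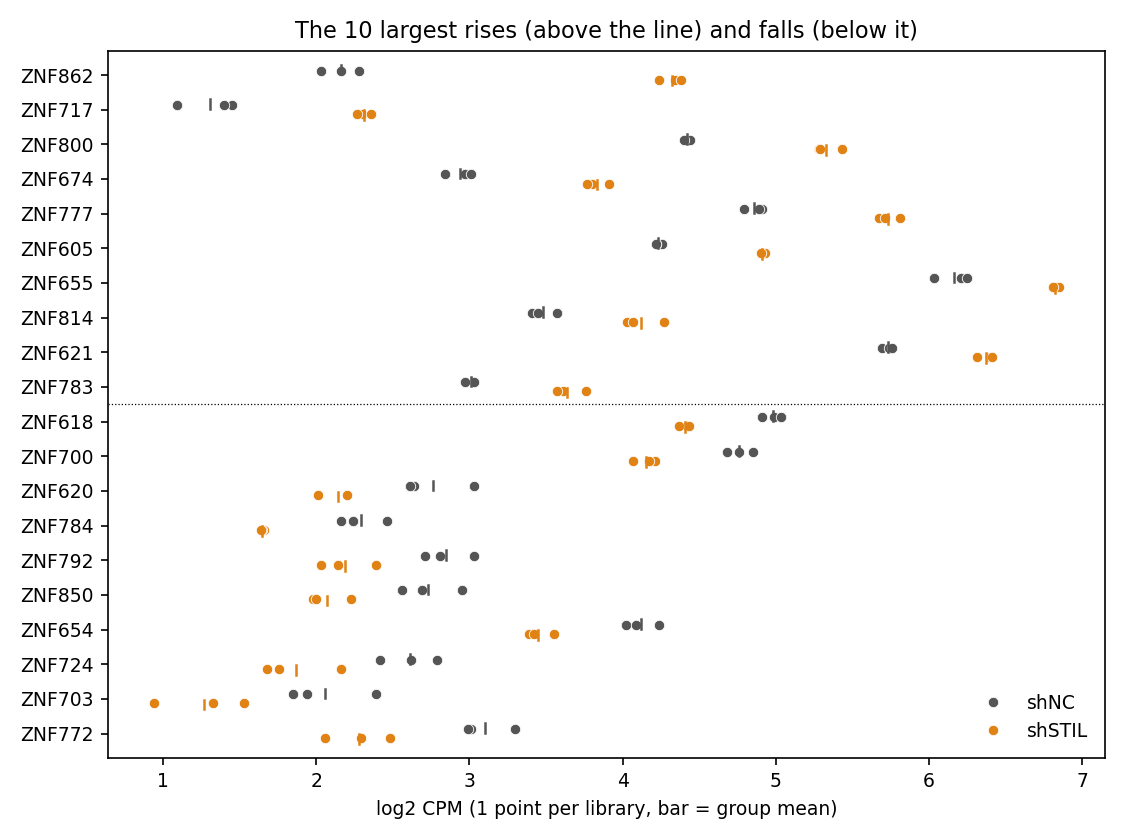
Log2 CPM of the 10 largest rises and the 10 largest falls among called members with a mean of at least 1, with 1 point per library, 3 in each group, and a bar at the group mean. The shNC and shSTIL points do not overlap in any of the 20 genes, and the gap of ZNF862 is the widest.

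Most members with many reads rose. Of the 23 members whose mean log2 CPM reached 5, 15 were higher (65.2%) and 2 (ZNF629 and ZNF687) were lower (8.70%), with a median log2 fold change of 0.37. Among all genes at that level 36.0% were higher and 34.5% lower, with a median of 0.01, and of the 62 other ZNF genes at that level 31 were higher and 11 lower, with a median of 0.20. This level was chosen after the values had been seen. ZNF664 had the most reads and read 7.23, 7.36 and 7.31 log2 CPM in shNC and 7.81, 7.79 and 7.75 in shSTIL (log2 fold change 0.48, SE 0.04, limma adjusted p = 1.1e-07). ZNF609, the host gene of a circular RNA and a partner of the cohesin loader, read 7.0, 6.98 and 7.02 against 7.52, 7.38 and 7.46 (log2 fold change 0.45, SE 0.04, limma adjusted p = 3e-07). ZNF638, which recruits the silencing complex HUSH to unintegrated retroviral DNA, had a log2 fold change of 0.36 (SE 0.04, limma adjusted p = 2.9e-06), and ZNF768, which binds MIR repeats, one of 0.55 (SE 0.05, limma adjusted p = 6.1e-07). In each of these 4 genes the 3 shSTIL libraries were the 3 highest. Divided by the length of the gene's exons, the level was 37.6 CPM per kb for ZNF768, 29.8 for ZNF664, 12.5 for ZNF609 and 8.34 for ZNF638, so that ZNF768 and ZNF664 were first and second of the members by this measure. At this level the count of higher members was 13 to 15 when a library was left out and that of lower ones 0 to 2. Among the 26 members with a mean under 1, 3 were called (11.5%), ZNF705E, ZNF677 and ZNF844, all higher. Over all 15953 genes at any level 23.5% were higher and 23.6% lower, and the shares among all genes under 1 were not computed. Of the 157 members 13 had no reads in at least 1 library. ZNF750, a factor of epidermal differentiation, was among these, with 0 to 2 reads per library. Among the 131 members with a mean of at least 1, 34 were higher (26%) and 30 lower (22.9%), beside 30.5% and 31.4% of all genes at that level.

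Other called members are described by range and example. The rises with a mean of at least 1 and no mention so far ran from ZNF622 (0.35), a factor of large ribosomal subunit maturation, to ZNF641 and ZNF853 (0.61 each). Among them was ZNF644, which works with the histone methyltransferases G9a and GLP, at 5.47, 5.71 and 5.72 log2 CPM in shNC and 6.11, 6.08 and 6.12 in shSTIL (log2 fold change 0.47, SE 0.06, limma adjusted p = 1.4e-05). Every shSTIL library was above the controls. ZNF687, a partner of the chromatin reader ZMYND8, read 5.71, 5.62 and 5.73 against 5.47, 5.26 and 5.36 (log2 fold change -0.32, SE 0.06, limma adjusted p = 0.00021). ZNF629 was lower by a similar amount (-0.34, SE 0.06, limma adjusted p = 0.00017), and in both genes the 3 shSTIL values were the 3 lowest. ZNF705E read -0.10, 0.22 and 0.46 in shNC and 1.19, 1.45 and 1.16 in shSTIL (log2 fold change 1.08, SE 0.21, limma adjusted p = 0.00065) on 13 to 45 reads per library. It is uncertain because ZNF705 genes are near copies. RefSeq lists ZNF705E as a transcribed pseudogene, although GENCODE gives it a coding sequence, in which the KRAB pattern was found. The 90 members that were not called had log2 fold changes from -0.94 (ZNF878, 7 to 28 reads per library) to 0.99 (ZNF880, 2 to 12 reads). In 26 of them the groups did not overlap. These 26 are part of the 93 members (59.2%) without overlap, beside 60.3% of all genes, and the share among all uncalled genes was not computed. ZNF711, an X-linked gene mutated in intellectual disability, read 5.0, 5.16 and 5.11 against 5.05, 4.92 and 4.96, and these groups overlapped.

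Members with a KRAB match were called somewhat less often than all genes, in both directions. Their median level was also lower (2.86 against 4.36 log2 CPM over all genes), and the part of level in this was not tested. Of 102 KRAB members 20 were higher (19.6%) and 21 lower (20.6%), beside 23.5% and 23.6% of all genes, with a median log2 fold change of -0.06. Of 53 members without a match 17 were higher (32.1%) and 9 lower (17%), with a median of 0.19. The pattern can miss a KRAB box, so these 53 may include KRAB genes, and the difference between the lists was not tested. The members without a match had the higher median level (4.30 against 2.86 log2 CPM) and the GC-richer coding sequences (median 55.8% against 41.2%), and the part of level and base composition in this difference was not tested. On chromosome 19, 9 of 70 members were higher (12.9%) and 17 lower (24.3%), and on the other chromosomes 28 of 87 were higher (32.2%) and 13 lower (14.9%), beside the same 23.5% and 23.6% of all genes. The lower share on chromosome 19 was thus about that of all genes, and no difference between locations was tested. The 321 other ZNF genes, numbered below 600, had 86 higher (26.8%) and 47 lower (14.6%), and on chromosome 19 they had 35 higher and 25 lower of 165. Without 1 library the lower calls numbered 6 to 8 in KRAB members and 4 to 7 on chromosome 19, and the higher calls on chromosome 19 3 to 5. By the number of C2H2 matches, members with 10 or more had 16 higher and 19 lower of 83, and members with 1 to 9 had 20 higher and 9 lower of 66. Of the 6 members without a match, ZNF862 was higher, ZNF703 and ZNF738 were lower, and ZNF720, ZNF750 and ZNF839 were not called.

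Neighbouring members formed 9 runs of at least 4 genes no more than 1 Mb apart. The longest, on chromosome 19 from ZNF649 to ZNF813 (51889235 to 53496255, GRCh38), held 22 members, all with a KRAB match. In it 7 were lower (ZNF841, ZNF766, ZNF808, ZNF701, ZNF888, ZNF845 and ZNF813) with log2 fold changes from -0.50 to -0.36, and 1 was higher (ZNF677, with 10 to 27 reads per library). The 14 other ZNF genes between the same ends had the same tally of 7 lower and 1 higher, so that 38.9% of the 36 were lower and 5.56% higher, beside 23.6% and 23.5% of all genes and 31.4% and 30.5% of genes with a mean of 1 or more. These lists were described after the values had been seen, and no test was made of them. A second run, from ZNF850 to ZNF607 (36743480 to 37719761), had more rises than falls. Of its 7 members 2 were higher, ZNF875 and ZNF793, and 1 was lower, ZNF850, and of the 11 other ZNF genes inside it 6 were higher and none lower. In the run from ZNF682 to ZNF738 (19995131 to 21388582) 3 of 6 members were lower and none higher. In the chromosome 7 run from ZNF786 to ZNF775, which holds ZNF862, 4 of 6 were higher and none lower, and of the 5 other ZNF genes inside it ZNF425 was higher (1.03) and ZNF467 lower (-0.89). Without 1 library the first run had 2 to 4 lower members and no higher one and its other ZNF genes 3 to 5 lower, the ZNF850 run 1 to 2 higher members and 2 to 3 other ZNF genes, the ZNF682 run 0 to 2 lower and the chromosome 7 run 3 to 4 higher.

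**Figure D4:**
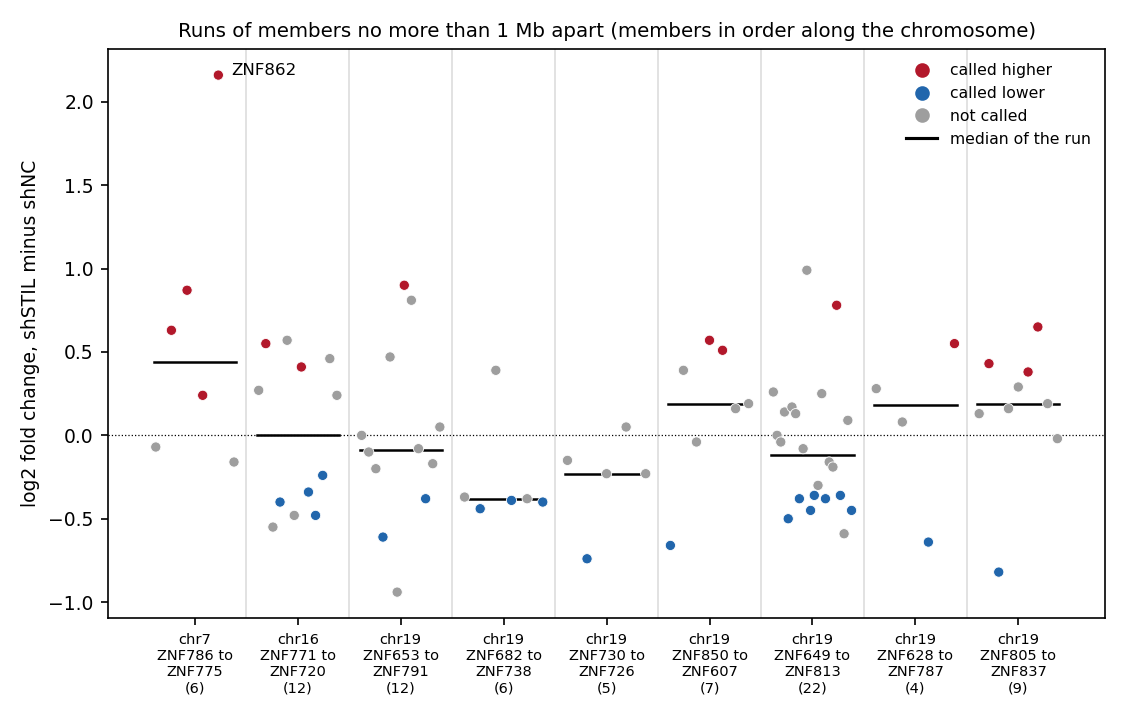
Log2 fold change (shSTIL minus shNC) of the members in the 9 runs, 1 point per gene in order along the chromosome, with the run's median as a bar and the number of members in parentheses. Colour marks the call. In the ZNF649 to ZNF813 run 7 of 22 are lower, and in the chromosome 7 run 4 of 6 are higher, ZNF862 among them.

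Members next to each other in the list along a chromosome did not always move alike, and other genes can lie between them. Of 54 such pairs no more than 100 kb apart, 6 had both genes called, 3 of them in opposite directions. Of single members 42.7% were called, beside 47.1% of all genes. ZNF620 and ZNF621 are KRAB genes 4.4 kb apart on the plus strand of chromosome 3 (40506039 to 40518736 and 40523106 to 40539782). ZNF620 read 2.64, 3.03 and 2.61 log2 CPM in shNC and 2.01, 2.20 and 2.20 in shSTIL (log2 fold change -0.62), while ZNF621 read 5.69, 5.74 and 5.76 against 6.40, 6.31 and 6.41 (log2 fold change 0.64). One gene fell and the next rose, in 3 of 3 libraries each. ZNF749 (0.43) and ZNF772 (-0.82), 22.5 kb apart on chromosome 19, also differed in direction, as did ZNF677 and ZNF845. Each of these 3 pairs includes a weak call. ZNF620 lost its call in 6 of the 6 fits that left out a library, and ZNF772 in 5. ZNF749 (limma adjusted p = 0.0096) and ZNF677 (limma adjusted p = 0.0094, 10 to 27 reads per library) lay close to the threshold of 0.01. Reads can be shared between some of these rows. ZNF668 and ZNF646, on opposite strands, overlap by 1554 bases, and it is not stated whether counting used strand. ZNF768 (0.55) and ZNF747 (-0.55, not called) overlap by 2111 bases on the same minus strand, so strand could not separate their shared reads. The tables also hold the read-through transcripts ZNF765-ZNF761, which rose by 0.89 (SE 0.21, limma adjusted p = 0.0026), and ZNF816-ZNF321P, which had a log2 fold change of -1.35 (SE 0.17, limma adjusted p = 1.1e-05). The members ZNF765 (-0.59), ZNF761 (0.09) and ZNF816 (-0.16), which share exons with these, were not called and are uncertain. ZNF664 shares exons with the read-through ZNF664-RFLNA, which had a mean of -1.41 log2 CPM and was not called (0.05, limma adjusted p = 0.92). KRAB genes of one cluster are near copies of each other, and the authors' counting can divide a read among them.

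TRIM28 and most genes of a wider list of silencing factors were lower in shSTIL. Of 32 measured genes on a list of TRIM28, its partners and related silencing factors, 21 were lower (65.6%) and 3 higher (9.38%), with a median log2 fold change of -0.28 against 0.01 over all genes. Of all genes 23.6% were lower and 23.5% higher, and of genes with a mean log2 CPM of 5 or more, nearer to the list's median level of 6.53, 34.5% were lower and 36.0% higher. TRIM28, the scaffold that binds the KRAB box, had a mean of 8.70 log2 CPM in shNC (SD 0.02, n = 3) and 8.06 in shSTIL (SD 0.02, n = 3), a log2 fold change of -0.64 (SE 0.03, limma adjusted p = 6.9e-10). SETDB1, the methyltransferase it recruits, was not called (0.14, limma adjusted p = 0.026). Of the HP1 genes CBX1 (-0.44) and CBX3 (-0.36) were lower and CBX5 (0.32) was higher. In the NuRD complex CHD4 (-0.75), HDAC1 (-0.60), RBBP4 (-0.60), GATAD2B (-0.48), RBBP7 (-0.40), CHD3 (-0.35), HDAC2 (-0.18), GATAD2A (-0.17) and MTA2 (-0.15) were lower, MTA1 (0.41) was higher and MBD3 (-0.06) was not called. The DNA methylation genes UHRF1 (-1.23), DNMT1 (-0.73) and DNMT3B (-0.65) and the histone methyltransferase gene EHMT2 (-0.72) were lower. TRIM24 (-0.50), DAXX (-0.43), PPHLN1 (-0.30), SMARCAD1 (-0.26) and MPHOSPH8 (-0.19), the last of them and PPHLN1 genes of the HUSH complex, were lower too, and MORC2 (0.19), a HUSH cofactor, was higher. TASOR (0.03), ATF7IP (0.00), ATRX (0.08), EHMT1 (0.02), TRIM33 (-0.12) and DNMT3A (-0.18) were not called. Several of these genes, UHRF1 and DNMT1 among them, are known to be expressed with DNA replication. Without 1 library 15 to 18 were lower and 1 to 3 higher, with 1 higher when shSTIL replicate 2 or 3 was left out.

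**Figure D5:**
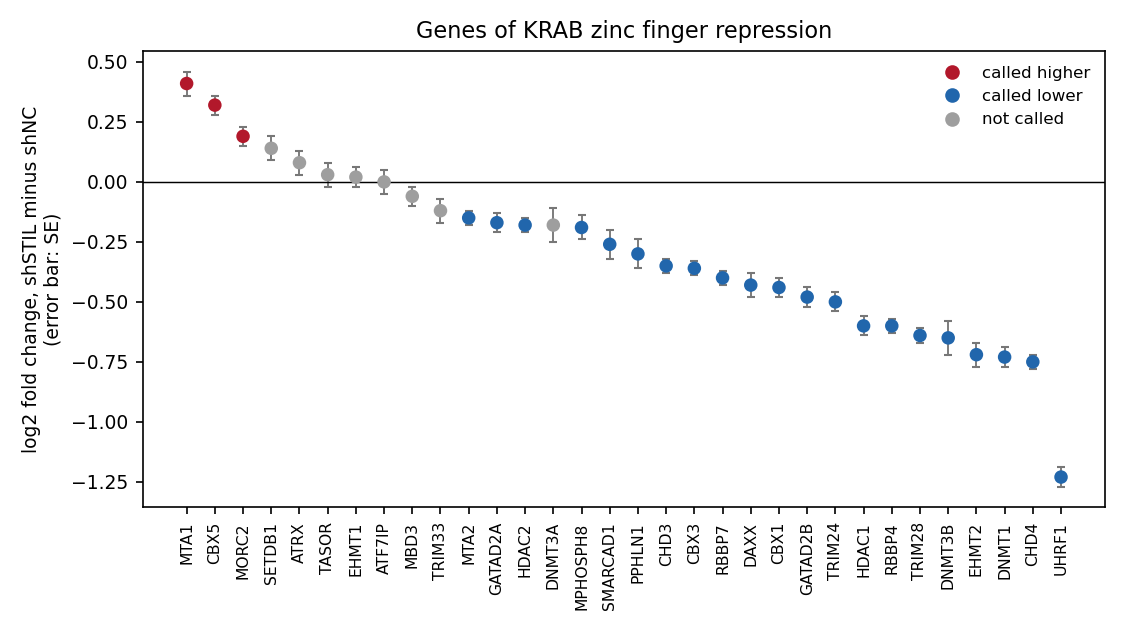
Log2 fold change (shSTIL minus shNC, error bar SE, 3 libraries in each group) of 32 measured genes, in order of size. They are TRIM28, its partners and related silencing factors. Colour marks the call. The order runs from MTA1 at 0.41 to UHRF1 at -1.23, with TRIM28 at -0.64.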

How the data were processed

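RNA was sequenced from 3 shNC and 3 shSTIL libraries of EJ cells on the BGISEQ-500. The authors filtered reads with SOAPnuke, mapped them to the transcriptome with Bowtie2, estimated gene counts with RSEM and deposited log2 CPM for 6 libraries and estimated counts for 4. The submitters' processing notes also name hg38 and limma, and versions are not given in the sources used here. The deposited log2 CPM values fit a prior count of 2 and were inverted to reads, of which 88.1% to 88.4% per library were whole within 0.02 and which differed from the deposited counts of 4 libraries by at most 0.0666. The members and lists were chosen with earlier results of these data known.

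The log2 CPM of all 15953 genes was fitted with limma 3.58.1 (R 4.3.3, empirical Bayes with a trend, shSTIL minus shNC), with Benjamini-Hochberg adjustment over all genes and no filter, and a DEG had an adjusted p under 0.01. The fits were also run on simulated counts in which only well-read genes changed, by a log2 size of 1 or more. That run does not cover the smaller changes that most called members had. The log2 fold changes of STIL and ZNF862 had an exact two-sided permutation test, and other single genes had none. Alternatives were quantile normalization, median centring, a mean log2 CPM of at least 1, no trend, edgeR 4.0.16 and DESeq2 1.42.0 on recovered reads rounded to whole numbers, an adjusted p under 0.05, an absolute log2 fold change above 1, a replicate block and each library left out. Precision is limited by 3 libraries per group. The correlations of deviations between libraries of the same number were -0.121, -0.0553 and -0.107, so the numbers were not taken to pair them.

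The text names ZNF862, the 10 largest rises and falls among called members whose mean log2 CPM was 1 or more and whose groups did not overlap, the 5 members with the most reads, measured genes within 500 kb of ZNF862, called genes of the corepressor list and STIL. Other genes were named after their values were seen. Gene positions and promoter windows are from RefSeq (GRCh38.p14). Strands, exon lengths and finger and KRAB matches are from GENCODE 29 (GRCh38). Its coding sequences were translated in place of the RefSeq proteins of the plan. Fingers and GC were taken from the longest coding sequence per gene, and a KRAB match was accepted in any coding sequence of the gene. A finger was C, 2 to 4 residues, C, 12 residues, H, 3 to 5 residues and H. A KRAB A box was D, then V, I or L, 2 to 4 residues, F, 2 or 3 residues, an E, Q, K or D, then W or R, 2 residues and L or M. Authors' comparison columns were not used.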

Additional observations from a re-analysis of the deposited data

How the results depend on the processing

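Of the 157 members, 37 were higher and 30 lower, against 38 and 25 with quantile normalization, 43 and 25 with median centring, 40 and 33 after keeping genes whose mean log2 CPM was 1 or more, 31 and 24 without the trend, 43 and 34 with edgeR, 34 and 26 with DESeq2 (8 members without an adjusted p) and 47 and 38 at an adjusted p under 0.05. The library numbers were not taken to pair the samples, and a replicate block gave 36 and 27. Their median of -0.01 became 0.04 with quantile normalization and median centring and -0.02 with a mean of at least 1, while that of all genes reached at most 0.05. With an absolute log2 fold change above 1 added, 2 members were higher and 0 lower, namely 2 and 0 of KRAB members, 0 and 0 of those without a match, 0 and 0 on chromosome 19 and 2 and 0 elsewhere. It left 1 of the 20 named rises and falls, 0 higher and 1 lower corepressor genes, and 7 higher and 1 lower of the other ZNF genes. On chromosome 19 DESeq2 called 5 higher members and an adjusted p under 0.05 gave 14.

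With 1 library left out, 25 to 31 members were higher and 9 to 13 lower, and 13 to 15 of the 20 named genes kept their call. KRAB members had 12 to 15 higher and 6 to 8 lower, and those without a match 13 to 16 higher and 2 to 6 lower. On chromosome 19 there were 3 to 5 higher and 4 to 7 lower, elsewhere 22 to 26 higher and 4 to 7 lower, in the corepressor list 1 to 3 higher, and in the other ZNF genes 46 to 58 higher and 21 to 32 lower. These fits hold fewer samples. No direction turned among the 30 single genes followed, ZNF862 kept its call in each setting, and counts for the level split, runs and promoter letters were added after the data were seen. Depth limits the 26 members with a mean under 1.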
